A study of Mus musculus with 8 samples.

Results

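To ask where the machinery of bone resorption and cell fusion is transcribed in the adult tibia, UMIs (unique molecular identifiers, each standing for 1 captured transcript) of 10 osteoclast genes, of 31053 genes in the matrix, were counted in single cells. They are a list chosen for their roles and not for their levels: Acp5, Ctsk, Tcirg1, Clcn7, Atp6v0d2, Dcstamp, Ocstamp, Oscar, Calcr and Nfatc1. The cells came from the tibiae of mice at P56 (postnatal day 56, 8 weeks) that all carried Col1a1-2.3-GFP, a GFP transgene driven by a Col1a1 promoter fragment, together with R26-tdT, a Cre-dependent tdTomato reporter, COL10A1cre, which acts in hypertrophic chondrocytes, and MMP14 F/+, that is 1 floxed Mmp14 allele. Trabecular bone with part of the growth plate was digested with collagenase and dispase after the first trypsin digests, which hold most blood cells, had been discarded. The 8 labelled samples are 1 group, and cells of 3 mice were deposited as 1 pool with no mark of sample or mouse. They were treated as 1 sample without replicates, so that no test was possible, and the 95% intervals below (exact Poisson for UMIs, Clopper-Pearson for shares, exact conditional for ratios) cover counting error only and not the variation between cells or mice. Where a gene was at 0 UMIs, the limit given for the share of cells with a UMI is that of 3 counts, and it does not limit the share of cells that express the gene. Of 12564 barcodes, the 8023 with at least 1000 genes were analysed, with a median of 6580 UMIs per barcode (1615 to 103543). Levels are given as UMIs of a gene per 1000000 UMIs (CPM), summed over a class, and are compared between classes for 1 gene at a time.

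Osteoclasts are large multinucleated cells that arise by fusion of precursors of the monocyte and macrophage lineage and dissolve bone. They seal off a patch of bone, pump acid into it through a vacuolar proton pump (V-ATPase) coupled to a chloride channel, and release proteases and phosphatases into the acid space. Their differentiation is driven by the receptors for M-CSF and RANKL and by the transcription factor Nfatc1, with Mitf and PU.1 acting on many of the same genes.

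Mitf and the related Tfe factors bind E-boxes, and the window from 250 bases before to 50 bases after each annotated start was therefore read from RefSeq (GRCm38.p6) and searched on both strands for CATGTG and CACGTG. Of the 10 genes, 6 were taken, with 12 windows. Atp6v0d2, Dcstamp, Ocstamp and Nfatc1 have no window among the 12, and the counts below do not cover them. An E-box was found in 4 of the 12 windows, against 20.4% of 32851 windows of the same length (14.2% with CATGTG and 7.15% with CACGTG). The 4 windows printed below are those of Acp5, a leading gene of the results, Oscar and Clcn7, each with an E-box near the start, and Ctsk, which had none. Acp5 is at chr9:22130549-22130848 on the minus strand, with the E-box 90 bases before the start, and Oscar is at chr7:3616108-3616407 on the minus strand, with the E-box 6 bases before it. Clcn7 is at chr17:25133141-25133440 on the plus strand, with E-boxes 15 bases before and 7 after the start, and Ctsk is at chr3:95498960-95499259 on the plus strand. Capitals mark E-boxes on either strand:
Acp5: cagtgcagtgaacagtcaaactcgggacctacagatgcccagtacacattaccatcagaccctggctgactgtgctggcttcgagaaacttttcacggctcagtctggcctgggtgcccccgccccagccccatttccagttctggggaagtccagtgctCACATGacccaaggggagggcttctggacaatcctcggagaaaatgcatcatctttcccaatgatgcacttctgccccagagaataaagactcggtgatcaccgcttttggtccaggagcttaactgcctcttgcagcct
Oscar: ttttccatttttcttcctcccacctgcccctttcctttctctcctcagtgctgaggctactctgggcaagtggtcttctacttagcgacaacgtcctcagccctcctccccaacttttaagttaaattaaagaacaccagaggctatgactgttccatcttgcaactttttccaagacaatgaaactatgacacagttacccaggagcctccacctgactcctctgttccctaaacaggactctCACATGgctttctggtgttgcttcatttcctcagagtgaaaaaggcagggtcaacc
Clcn7: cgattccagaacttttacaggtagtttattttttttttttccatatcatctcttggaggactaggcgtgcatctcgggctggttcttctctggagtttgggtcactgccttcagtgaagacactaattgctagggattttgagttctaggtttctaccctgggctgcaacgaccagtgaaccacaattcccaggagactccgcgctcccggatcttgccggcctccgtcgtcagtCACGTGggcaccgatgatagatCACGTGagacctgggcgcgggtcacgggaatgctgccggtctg
Ctsk: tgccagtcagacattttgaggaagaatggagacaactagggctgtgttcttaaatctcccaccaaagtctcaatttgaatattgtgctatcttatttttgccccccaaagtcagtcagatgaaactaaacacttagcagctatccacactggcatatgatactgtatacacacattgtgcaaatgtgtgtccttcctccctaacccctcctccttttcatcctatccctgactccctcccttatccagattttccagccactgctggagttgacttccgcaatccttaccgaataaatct
These are matches of letters and not sites of binding. The NFAT core GGAAA lies in all 4 windows above but also in 61.3% of all windows. The PU.1 core GAGGAA, which can share letters with GGAAA, was in 28.3% of all windows and, of the 4, in those of Oscar and Ctsk, and the AP-1 motif TGANTCA, in 7.81% of all windows, was in none of the 12. Acp5 and Clcn7 have further windows, of which the 2 of Acp5 held no E-box, and UMIs from the 3′ end of transcripts do not tell which start was used.

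The 10 genes fell into 3 kinds by where their UMIs lay. Acp5, tartrate-resistant acid phosphatase, was represented by 6280 UMIs in 971 barcodes, and Ctsk, the collagen-degrading protease cathepsin K, by 4611 UMIs in 412 barcodes. Atp6v0d2, a V-ATPase subunit of osteoclasts, was represented by 492 UMIs in 32 barcodes. For these 3 genes most UMIs were in few cells. In mm10, Acp5 (ENSMUSG00000001348) spans chr9:22126727-22135711 on the minus strand, Ctsk (ENSMUSG00000028111) chr3:95499256-95509362 on the plus strand and Atp6v0d2 (ENSMUSG00000028238) chr4:19876841-19922605 on the minus strand, and UMIs were counted per gene. Tcirg1, the osteoclast a3 subunit of the V-ATPase, was spread over 1986 barcodes (3181 UMIs), Nfatc1 over 1949 (4273 UMIs) and Clcn7, a chloride and proton exchanger of the ruffled border, over 692 (794 UMIs). The fusion genes Dcstamp and Ocstamp were rare, with 182 UMIs in 65 barcodes for Dcstamp (ENSMUSG00000022303, chr15:39745930-39760938, plus strand) and 130 UMIs in 58 barcodes for Ocstamp (ENSMUSG00000027670, chr2:165393760-165400405, minus strand). Oscar, an activating receptor that binds collagen, had 20 UMIs in 5 barcodes, of which 15 were in 1 barcode. Calcr, the calcitonin receptor, was at 0 UMIs in all 12564 barcodes, which among the 8023 allows a share of cells with a UMI of up to 0.0374%. The number of genes seen could therefore reach only 9.

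Most barcodes held few of the genes. There were 3713 barcodes with none of them, 2873 with 1, 1150 with 2 and 228 with 3, and 59 barcodes held 4 or more, or 0.735% (0.560% to 0.948%). Of the 59, 31 held 4 genes, 9 held 5, 2 held 6, 6 held 7, 9 held 8 and 2 held 9. The numbers fell from 4 to 6 genes and rose again to 8. After this had been seen, the 59 were divided into 19 barcodes with 6 or more genes and 40 with 4 or 5.

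**Figure D1:**
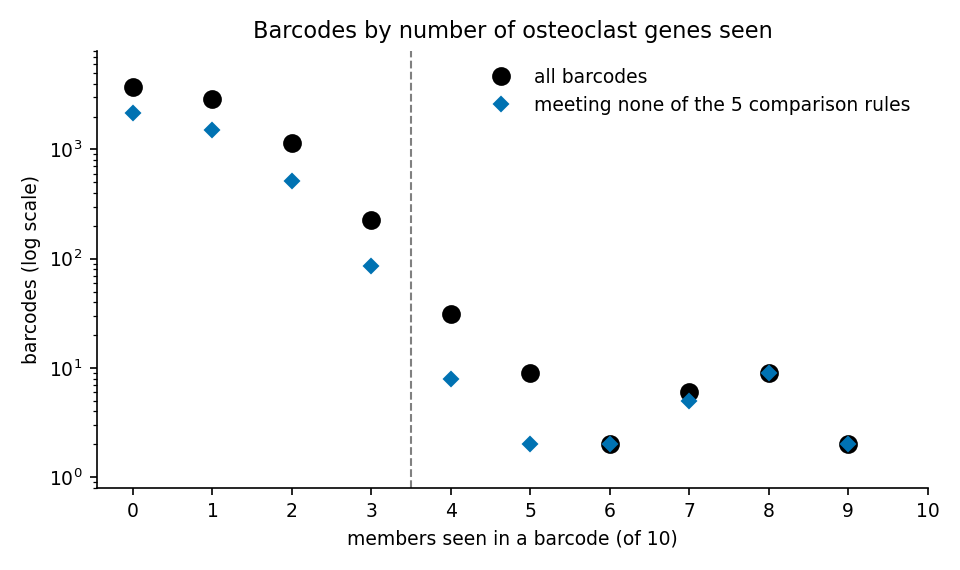
Number of barcodes (log scale) by how many of the 10 osteoclast genes were seen in a barcode, for all 8023 barcodes and for those that met none of the 5 comparison rules. The counts fall to 2 barcodes at 6 genes, rise to 9 at 8 genes, and 18 of the 19 barcodes with 6 or more genes met none of the rules.

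Barcodes just outside and just inside the threshold were alike in that they held the widely spread genes. With 3 genes, the median depth was 14082 UMIs, Nfatc1 was seen in 79.8% of barcodes, Tcirg1 in 77.2%, Clcn7 in 58.8%, Acp5 in 44.7% and Atp6v0d2 in 0.877%. With 4 genes, the median depth was 21569 UMIs, the median Acp5 count was 1 UMI, and Atp6v0d2 was seen in 3 of 31 barcodes. With 6 or more genes, the median depth was 27888 UMIs, the median Acp5 count was 159 and Atp6v0d2 was seen in 19 of 19. Depth differed between these steps, and all barcodes of at least 3000 UMIs were therefore thinned to 3000 UMIs, the mean of 100 draws being taken. On average 17.7 of 6674 barcodes (15 to 22 over the draws) then held 4 or more genes. Of the 19 barcodes 15.9 still did so, and of the 40 barcodes 1.80.

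The 5 comparison classes were set by single genes: monocytes (at least 1 Ccr2 UMI, 792 barcodes), macrophages (at least 5 C1qa and C1qb UMIs, 59), neutrophils (at least 50 S100a8 UMIs per 10000, 2372), osteoblasts (at least 20 Bglap UMIs, 26) and chondrocytes (at least 10 Col2a1 UMIs, 300). Barcodes with 4 or more of the osteoclast genes, and 136 that met more than 1 rule, were kept out of them, and 4279 barcodes met none. Their names are those of the rules. Of the Ccr2-positive barcodes, 710 held at least 2 UMIs of the 5 monocyte markers other than Ccr2, 110 at least 2 UMIs of 3 T or NK cell markers and 28 at least 2 UMIs of 3 basophil or mast cell markers, so that this class is not monocytes alone. Of the 40 barcodes with 4 or 5 osteoclast genes, 30 met at least 1 of the 5 rules: 12 the Ccr2 rule, 6 the C1q rule, 4 the S100a8 rule, 2 the Bglap rule and 11 the Col2a1 rule, with 5 meeting more than 1. Of the 19 barcodes with 6 or more genes, 18 met none and 1 met the S100a8 rule.

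The markers of other cells differed between the same sets. In the 19 barcodes, the monocyte markers Ccr2, F13a1, Fn1 and Vcan and the macrophage markers C1qa, C1qb, Adgre1, Mrc1, Vcam1 and Cd5l were at 0 UMIs, the 6 monocyte markers together were at 26.9 CPM (0 to 1.61 UMIs per 10000 in a barcode), and 41 of the 42 macrophage marker UMIs were from Axl. The monocyte markers were at 3995 CPM in the Ccr2-positive class and at 2896 CPM in the 40 barcodes with 4 or 5 genes. Most of these UMIs in the 40 were from Fn1, fibronectin, which chondrocytes held at 3045 CPM, and without Fn1 the markers were at 3140 CPM in the Ccr2-positive class and at 564 CPM in the 40. Ptprc, the pan-leukocyte gene, was seen in 17 of the 19. All 8 neutrophil markers were seen in the 19, at 4658 CPM together, with a lowest, median and highest barcode of 2.55, 5.07 and 880 UMIs per 10000. The highest is the barcode that met the S100a8 rule: it held 383 S100a8 UMIs, 76 Acp5 and 103 Ctsk UMIs and 21.8% mitochondrial UMIs, and without it the neutrophil markers of the other 18 were at 474 CPM. Erythroid markers were at 7846 CPM in the 19, with a median of 7.49 and a highest value of 871 UMIs per 10000. The other lists, of osteoblast, chondrocyte, B cell, T or NK cell, endothelial, megakaryocyte and basophil or mast cell markers, were each between 1.92 and 49.9 CPM. The part of these cells in the results was not tested beyond the values given without them.

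Together, the 10 genes were at 6621 CPM (6493 to 6752) in the 59 barcodes, which held them by choice. The level was 18255 CPM (17890 to 18626) in the 19 and 577 CPM (531 to 626) in the 40. Among the comparison classes it was 493 CPM in macrophages, 303 in chondrocytes, 280 in osteoblasts, 146 in Ccr2-positive barcodes and 79.8 in neutrophils. The 19 barcodes without the one that met the S100a8 rule were at 18733 CPM, and the 59 without the barcode richest in the 10 genes together were at 4839 CPM. Scrublet marked 273 of 8023 barcodes as doublets (3.40%), 3 of the 59 and 0 of the 19, the barcode that met the S100a8 rule being unmarked.

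**Figure D2:**
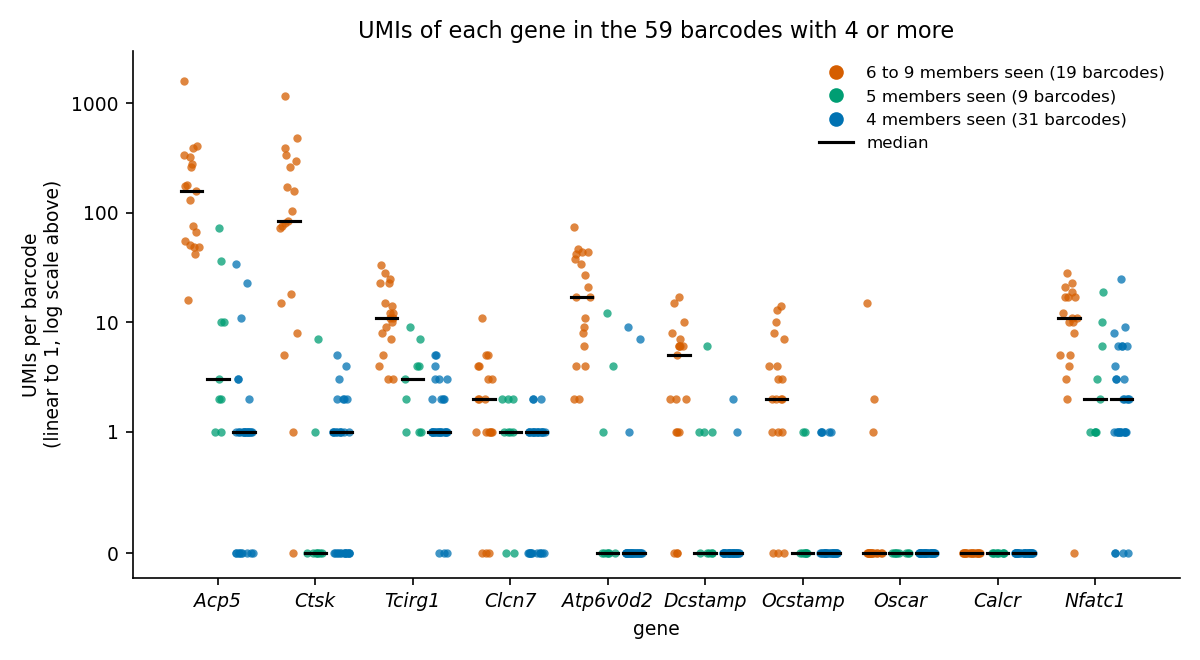
UMIs of each gene (linear to 1, log scale above) in each of the 59 barcodes with 4 or more genes seen. Colours mark 6 or more (19 barcodes), 5 (9 barcodes) or 4 genes seen (31 barcodes), and bars mark medians. The median Acp5 count was 159, 3 and 1 UMIs in these sets, in that order, and the median Ctsk count was 83, 0 and 1.

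Within the 19 barcodes the secreted enzymes spanned the widest range. Acp5 had a lowest, median and highest count of 16, 159 and 1586 UMIs, and Ctsk of 0, 83 and 1165. In the 40 barcodes Acp5 lay between 0 and 72 UMIs and Ctsk between 0 and 7, so that both genes overlapped between the sets at their low end only. Among the proton pump and channel genes, Atp6v0d2 had 2, 17 and 74 UMIs, Tcirg1 3, 11 and 33, and Clcn7 0, 2 and 11. Tcirg1 reached 9 UMIs in the 40 and so overlapped between the sets, while 6 of the 40 held Atp6v0d2, with up to 12 UMIs. The fusion genes were seen in 16 of the 19 each, Dcstamp with 0, 5 and 17 UMIs and Ocstamp with 0, 2 and 14. Nfatc1 was seen in 18 of 19, with 0, 11 and 28 UMIs, and in 36 of 40 with up to 25. Oscar was seen in 3 of the 19, with 15, 2 and 1 UMIs, and in 0 of the 40, which allows a share of up to 7.50%. All of these values describe barcodes that the same genes chose.

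A barcode chosen by the genes holds them by construction, and each gene was therefore measured in the barcodes that held 4 or more of the other 9. Of the 4 genes with at least 50 UMIs in the Ccr2-positive class itself, Acp5, Tcirg1 and Nfatc1 were at least 4-fold higher there than in that class, and Clcn7 was not. In the 59 barcodes as a whole 1.56% of 8569 genes chosen in this way were. Ctsk, Atp6v0d2, Dcstamp and Ocstamp reached 50 UMIs only with those of the chosen barcodes, which by itself favours a higher value. Their ratios are a description, and with them the count was 7 of 8, against 4.77% of 9218 genes. When 3 of the others were asked for, Tcirg1 (0.84) and Ocstamp (1.81) did not reach 4-fold, a log2 ratio of 2, and at 6 of the others Clcn7 (2.44) did. Transcripts of the secreted enzymes had high ratios: the log2 ratio was 8.37 (8.13 to 8.63) for Acp5, from 4758 UMIs in 37 barcodes (5048 CPM) against 135 UMIs in 798 barcodes (15.2 CPM). For Ctsk it was 11.39 (10.59 to 12.35), from 3687 against 1.37 CPM.

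Atp6v0d2 was at 320 CPM in the barcodes that the other 9 chose, and a single UMI was in the Ccr2-positive barcodes, a log2 ratio of 11.45 (8.97 to 16.76) that rests on this UMI. It lay in a barcode of the 59 that the other 9 genes did not choose and that therefore fell into the class, which has 793 barcodes here and held no Atp6v0d2 UMI otherwise. Tcirg1, from the same enzyme complex, was at 344 CPM in the chosen barcodes and 73.1 CPM in Ccr2-positive ones, giving 2.24 (2.03 to 2.44). Clcn7 was at 53.6 and 17.2 CPM, or 1.65 (1.18 to 2.09). The intervals of both pump subunits do not overlap. For the fusion genes the log2 ratios were 4.73 (4.07 to 5.45) for Dcstamp and 3.63 (3.06 to 4.22) for Ocstamp. Nfatc1 was at 3.21 (2.97 to 3.45). Oscar, with 19 UMIs in both classes together, was at 6.69 (4.03 to 12.07) and was not counted.

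Against the macrophages, which share resorptive and lysosomal genes, Acp5 was at 5048 CPM against 248, a log2 ratio of 4.35 (4.09 to 4.62), and Tcirg1 was at 1.16 (0.79 to 1.54). Clcn7 was at 0.079 (-0.62 to 0.82), a difference not detectable at this depth. The ratios of these 3 genes were below those to the Ccr2-positive class, with intervals that do not overlap. Dcstamp was at 2.74 (1.47 to 4.39), Ctsk at 10.78 (8.31 to 16.09) and Nfatc1 between 2.43 and 3.85, and their intervals overlap those against the Ccr2-positive class. Atp6v0d2 and Ocstamp were at 0 UMIs in the macrophages, and against a floor of 3 UMIs their log2 ratios were at least 5.67 and at least 3.13. Ctsk was closest to osteoblasts, at 4.24 (3.95 to 4.54), and was at 6.04 (5.88 to 6.21) against chondrocytes. Nfatc1 was closest to chondrocytes, where its log2 ratio was 0.55 (0.35 to 0.74).

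**Figure D3:**
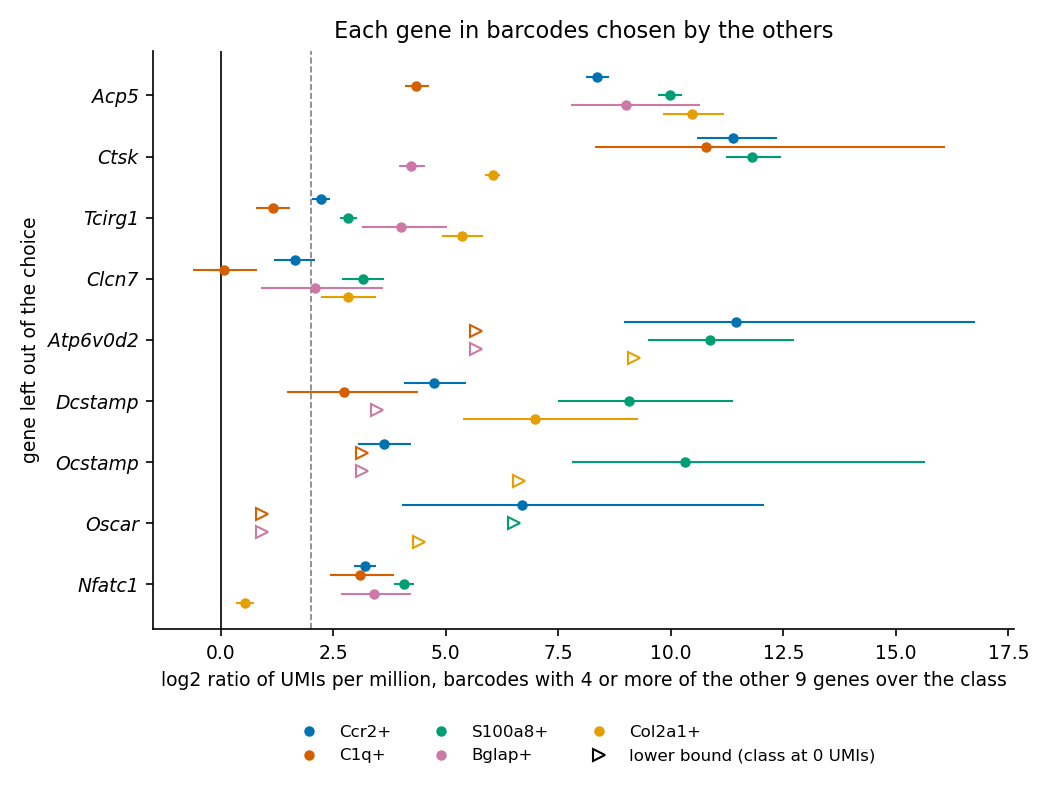
Log2 ratio of CPM for each gene (rows), in barcodes with 4 or more of the other 9 genes over each comparison class (colours), with exact 95% intervals for counting error and arrows for lower bounds. Against Ccr2-positive barcodes Acp5, Ctsk and Atp6v0d2 lie farthest to the right, while Clcn7 against macrophages (0.079) and Nfatc1 against chondrocytes (0.55) lie nearest to 0.

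Outside the 59 barcodes each gene had its own pattern. Acp5 was next highest in macrophages, where it was at 249 CPM (206 to 298) and seen in 59.3% of cells (43.8% after thinning to 3000 UMIs), at a level that the 40 barcodes (229 CPM, 200 to 260) did not exceed beyond counting error. It was seen in 4.00% of chondrocytes (0.909% thinned), a class that should lack it, at median depths of 7030 UMIs in macrophages and 15846 in chondrocytes. It was at 34.8 CPM in barcodes of no class, 13.5 in Ccr2-positive barcodes, 8.36 in osteoblasts, 4.87 in neutrophils and 2.77 in chondrocytes. From the Ccr2-positive class down, each class had an interval that overlaps the next. The barcodes of no class held 72.1% of the Acp5 UMIs outside the 59, though none of them held more than 25.

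Ctsk was highest outside the 59 in the skeletal classes. It was at 207 CPM (168 to 252) in osteoblasts, seen in 65.4% of 26 cells (34.7% thinned), and at 55.5 CPM (49.4 to 62.2) in chondrocytes, seen in 53.3% of 300 (16.9% thinned). It was at 1.26 CPM in Ccr2-positive barcodes, 0.991 in neutrophils and, with 1 UMI in 59 barcodes, 2.09 (0.053 to 11.6) in macrophages, and these 3 do not differ beyond counting error. The shares were 1.01%, 0.759% and 1.70%, against median depths of 8228, 7272 and 7030 UMIs, and 17156 in osteoblasts. Chondrocytes held 35.3% of the Ctsk UMIs outside the 59 barcodes.

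Tcirg1 was highest outside the 59 in macrophages at 150 CPM (118 to 189), followed by Ccr2-positive barcodes at 72.5 (66.9 to 78.4) and neutrophils at 48.1 (45.3 to 51.0), and was at 7.38 CPM in chondrocytes. After thinning it was seen in 40.5%, 19.4%, 11.3% and 2.49% of cells. Clcn7 kept the same order in part, with 48.1 CPM (30.5 to 72.1) in macrophages, 16.6 in Ccr2-positive barcodes and 12.5 in osteoblasts, whose intervals overlap, 6.64 in chondrocytes and 5.94 in neutrophils, whose intervals also overlap. Both genes serve lysosomes in general, and both were seen in every class.

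Atp6v0d2 was the gene most limited to the 59 barcodes: 98.6% of its UMIs were there, and the other 7 barcodes held 1 UMI each. It was at 0 UMIs in the Ccr2-positive class (up to 0.379% of cells with a UMI), macrophages (up to 5.08%), osteoblasts (up to 11.5%) and chondrocytes (up to 1.00%), and in 4 of 2372 neutrophils. Dcstamp outside the 59 was at 10.5 CPM (3.39 to 24.4) in macrophages, 2.41 (1.49 to 3.68) in Ccr2-positive barcodes and 0.129 in neutrophils. Ocstamp outside the 59 was a gene of the Ccr2-positive class, with 27 of the 35 barcodes and 4.12 CPM (2.89 to 5.71), and was at 0 UMIs in macrophages. The UMIs of Ocstamp there did not exceed 3 per barcode.

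Nfatc1 was the gene with most of its UMIs elsewhere. It was at 230 CPM (218 to 243) in chondrocytes, where 84.0% of cells held it (43.9% thinned), and at 428 CPM (374 to 488) in the 19 barcodes, where 67.4% did after thinning. It was at 56.7 CPM in barcodes of no class, 35.4 in Ccr2-positive barcodes, 33.4 in macrophages, 31.4 in osteoblasts and 19.6 in neutrophils. The Ccr2-positive, macrophage and osteoblast classes do not differ beyond counting error. A single Nfatc1 UMI therefore does not mark a barcode of the 19, and 162 chondrocytes held 3 or more. An antisense gene, AC123818.1, overlaps Nfatc1, and 6530413G14Rik overlaps Acp5 on the other strand. The use of strand in counting was not given in the sources used here.

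**Figure D4:**
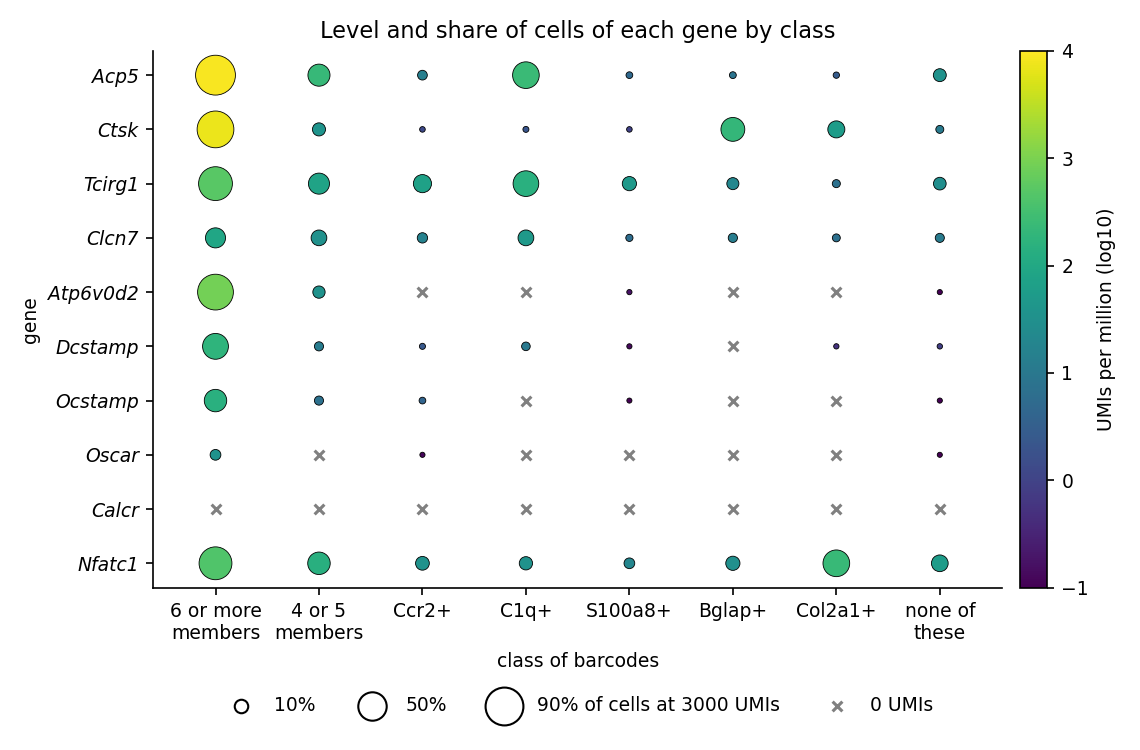
Level (colour, CPM on a log10 scale) and share of cells with a UMI after thinning to 3000 UMIs (dot size, crosses for 0 UMIs) of each of the 10 genes in each class of barcodes. Acp5 and Tcirg1 are high in macrophages next to the 19 barcodes, Ctsk in osteoblasts, Nfatc1 in chondrocytes, and Atp6v0d2 is at 0 in 4 of the 5 comparison classes.

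The genes were then taken in pairs. Acp5 and Ctsk, which both act on bone matrix, were seen together in 53 barcodes. That is 5.46% (4.12% to 7.08%) of the barcodes with Acp5, against the 5.14% of all barcodes that held Ctsk, and 12.9% (9.79% to 16.5%) of the barcodes with Ctsk, against 12.1% for Acp5. Of the 53, 18 were among the 19 barcodes, which the same genes chose, and 23 held more than 1 UMI of both. Both intervals take in the share over all barcodes, at unequal depth. After thinning both genes were seen together in 21.4 barcodes on average. That is 5.37% of the barcodes with Acp5, against 2.55% of all 6674 thinned barcodes for Ctsk, and 12.6% of those with Ctsk, against 5.97% for Acp5, so that at equal depth the shares lay above those over all barcodes. Of the 19 barcodes, 15.9 still held 4 or more genes after thinning, and their part in the 21.4 was not counted.

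Of the 32 barcodes with Atp6v0d2, 81.3% (63.6% to 92.8%) held Acp5, 81.3% Tcirg1, 78.1% Nfatc1, 59.4% Ctsk and 53.1% Dcstamp, and 16 of the 32 held Ocstamp. Of all barcodes, 12.1%, 24.8%, 24.3%, 5.14%, 0.810% and 0.723% held these 6 genes. Of the 32 barcodes, 25 were among the 59, and these took in all of the 19, which the same genes chose. Dcstamp and Ocstamp, which act in the same fusion step, were seen together in 14 barcodes, of which 13 were among the 19. They were 21.5% (12.3% to 33.5%) of the Dcstamp barcodes and 24.1% (13.9% to 37.2%) of the Ocstamp barcodes, against 0.723% and 0.810% of all barcodes. After thinning they were together in 2.85 barcodes on average, or 10.0% of the Dcstamp barcodes, against 0.285% of all. Ctsk and Nfatc1 were seen together in 250 barcodes, or 60.7% (55.8% to 65.4%) of the Ctsk barcodes, against 24.3% of all, and 34 of these were among the 59. Deep barcodes hold more genes of any kind, and these shares were not corrected for depth; after thinning Atp6v0d2 was seen with Acp5 in 18.6 barcodes on average, or 85.2% of its barcodes against 5.97% of all, and Ctsk with Nfatc1 in 54.0, or 31.7% of the Ctsk barcodes against 13.2% of all.

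The 19 barcodes were not uniform. Over them, CPM of Acp5 and Ctsk had a Spearman correlation of 0.93, Ctsk and Mmp9 of 0.92, Acp5 and Mmp9 of 0.86, Acp5 and Nfatc1 of 0.48 and Acp5 and Tcirg1 of 0.46. The points share 1 pool and the denominator of total UMIs, and these values are a description. In the 13 barcodes with more than 50 Ctsk UMIs, a division made after the values were seen, Acp5 lay between 49 and 1586 UMIs and Mmp9, a gelatinase of osteoclasts, between 3 and 631. In the 6 others Acp5 lay between 16 and 66 and Mmp9 between 0 and 7. The barcode of the 6 with 18 Ctsk UMIs was also the shallowest of the 19, with 5085 UMIs, and had 3540 CPM of Ctsk, within the range of the 13. Nfatc1 was at 467 CPM in the 13 and 325 in the 6, and Atp6v0d2 at 1063 and 339.

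Among the barcodes with at least 10 Acp5 UMIs and at least 1 Atp6v0d2 UMI, a choice also made after the values were seen, proliferation genes were read beside Ctsk. There were 24 such barcodes, and the 7 of them with 0 or 1 Ctsk UMI held 0, 1, 10, 40, 41, 55 and 68 UMIs of Top2a, Mki67 and Birc5 together. The 17 with 2 or more Ctsk UMIs held between 0 and 31 (median 0), a range that takes in 3 of the 7. Median depths were 25330 and 26797 UMIs. The barcode with 40 UMIs also met the Ccr2 rule and was marked as a doublet, and the barcodes with 55 and 68 were among the 19. Such counts were not particular to these barcodes: 40 or more UMIs of the 3 genes were held by 14 of the 40 barcodes with 4 or 5 osteoclast genes and by 756 of all 8023. These are barcodes of 1 pool, and the values are a description.

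The wider osteoclast pathway was read in 59 further genes in 7 lists, compared with the Ccr2-positive class where at least 50 UMIs were present. In the 59 barcodes, 14 of 55 genes were at least 4-fold higher and 0 lower, against 4.77% of all genes higher and 3.88% lower. In the 19 barcodes, 21 of 54 were higher and 3 lower, against 3.06% of 8747 genes higher and 9.77% lower, and the median log2 ratio was 1.31 over the 54 and -0.23 over all genes. Of the 54, Mmp9, Mmp14, Tnfrsf11a, Slc9b2 and Src reached 50 UMIs only with those of the 19 barcodes, which by itself favours a higher value. Over genes with at least 50 UMIs in the Ccr2-positive class itself, 16 of 49 were higher in the 19 and 8 of 49 in the 59, against 2.33% and 1.56% of 8569 genes. In the other classes the same minimum in the class left 29 genes for macrophages, of which 4 were higher and 4 lower in the 19, against 2.52% of all such genes higher and 23.4% lower. For neutrophils 20 of 48 were higher and 3 lower, against 10.1% and 9.01%, and for chondrocytes 19 of 38 and 5, against 4.22% and 15.6%. For osteoblasts 4 of 12 were higher and 2 lower, against 4.76% and 23.7%. Without the barcode that met the S100a8 rule, 22 of 54 were higher and 4 lower than in the Ccr2-positive class. When the barcode with most UMIs of a gene was left out for each gene in turn, 17 of 54 were higher and 5 lower in the 19, with Cd47 and Fosl1 added to the 3.

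Of the osteoclast identity and protease genes, Ckb and Itgb3 had at least 50 UMIs in the Ccr2-positive class itself and were at least 4-fold higher in the 19 barcodes, Itgb3 only with its richest barcode. The values of Mmp9, Mmp14 and Tnfrsf11a, which passed the minimum through the 19, are a description. Mmp9 was at 4297 CPM against 4.01, a log2 ratio of 10.07 (9.59 to 10.59), and was seen in 16 of the 19. Neutrophils also hold Mmp9, and without the barcode that met the S100a8 rule it was at 4328 CPM. Mmp14, the membrane collagenase of which all cells carry 1 floxed allele, was at 438 CPM against 4.01, or 6.77 (6.25 to 7.33), and was seen in all 19. The place of its tags relative to the part that Cre deletes was not given in the sources used here. Ckb, brain-type creatine kinase, was at 5.95 (5.77 to 6.12), with 45.0% of its UMIs in 1 barcode, and at 5.21 without it. Tnfrsf11a, the receptor for RANKL, was at 5.35 (4.59 to 6.16) and was seen in 17 of 19, and Itgb3, a chain of the vitronectin receptor, was at 3.16 (2.51 to 3.78) in 6 of 19. Of the 34 Itgb3 UMIs 22 were in 1 barcode, and without it the log2 ratio was 1.78 (0.75 to 2.68), short of 4-fold. Siglec15 had 2 UMIs in 1 barcode and was not compared.

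In the 19 barcodes 8 of 15 measured subunits of the proton pump were at least 4-fold higher than in the Ccr2-positive class. None was lower and the median log2 ratio was 2.06. These were the membrane-domain subunits Atp6v0b and Atp6v0e and the subunits Atp6v1a, Atp6v1b2, Atp6v1c1, Atp6v1d, Atp6v1e1 and Atp6v1g1 of the domain that splits ATP. Without the barcode richest in each gene 5 of the 15 were, and Atp6v0e, Atp6v1e1 and Atp6v1g1 were at 1.87, 1.99 and 2.00, just short of 4-fold. Atp6v1b2 was at 699 CPM against 101, or 2.79 (2.61 to 2.97), and Atp6v0b at 2.38 (2.27 to 2.49). Atp6v0d1, the common counterpart of Atp6v0d2, was at 97.9 CPM against 118, or -0.27 (-0.70 to 0.14), and the alternative a subunits Atp6v0a1 and Atp6v0a2 were at -1.47 (-4.54 to 0.42) and 0.13 (-0.90 to 1.01), the latter at -0.43 without its richest barcode. In all 59 barcodes 0 of 15 subunits passed 4-fold against the Ccr2-positive class, with a median of 1.08. Against macrophages, with the minimum in that class, 2 of 11 were at least 4-fold higher in the 19 barcodes, Atp6v0e and Atp6v1e1. None was lower there and the median log2 ratio was 1.395. Against neutrophils 8 of 16 were higher and 0 lower, against chondrocytes 11 of 16 and 1, and against osteoblasts 3 of 3 and 0.

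Of the acid and ion handling list, 1 of 5 genes with at least 50 UMIs in the Ccr2-positive class was at least 4-fold higher, Slc4a2. Slc9b2, a sodium and proton exchanger of osteoclasts, had 150 UMIs in the 19 barcodes, seen in all of them with 1 to 33 UMIs (median 4), against 0 UMIs in the Ccr2-positive class, a log2 ratio of at least 9.71 in a gene that passed the minimum through the 19 alone. It was seen in 1 of the 40 barcodes with 4 or 5 genes, in 0 macrophages, 0 of 2372 neutrophils, 5 of 300 chondrocytes and 12 of 4279 barcodes of no class, with up to 4 UMIs. Slc9b2 took no part in choosing the barcodes. Slc4a2, the chloride and bicarbonate exchanger, was at 140 CPM against 11.5, or 3.61 (3.16 to 4.06). Car2, carbonic anhydrase II, was at 0.86 (0.57 to 1.13) against the Ccr2-positive class, or 0.27 (-0.087 to 0.62) without the barcode that held 38.7% of its UMIs, and at 3.07 (2.24 to 4.02) against macrophages. Snx10, Ostm1 and Plekhm1, which serve the traffic of acid vesicles, were at 1.97 (1.76 to 2.17), 0.92 (0.24 to 1.53) and 1.08 (0.28 to 1.79). Of the 24 Ostm1 UMIs 13 were in 1 barcode, and without it Ostm1 was at -0.084 (-1.11 to 0.78).

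Of the receptors and adaptors, 1 of 9 with at least 50 UMIs in the Ccr2-positive class was at least 4-fold higher, Itgav, the partner of Itgb3, at 3.79 (3.50 to 4.09). Src, the kinase needed for the ruffled border, had 54 UMIs in the 19 barcodes against 6 in that class, or 7.24 (6.02 to 8.75), and passed the minimum through the 19. Csf1r, the receptor for M-CSF, was seen in all 19 barcodes with 3 to 41 UMIs, at 1.63 (1.42 to 1.82). The adaptor Tyrobp was at 0.23 (0.15 to 0.32) and Fcer1g, the partner of Oscar, at -0.91 (-1.07 to -0.76). Itgav was at 340 CPM (292 to 394) in the 19 and 282 CPM (236.5 to 334) in macrophages, with intervals that overlap. Against macrophages Csf1r was at -0.42 (-0.67 to -0.17) and Trem2, the partner of Tyrobp, at -0.78 (-1.30 to -0.27). The other 8 genes of the list did not pass 4-fold against the Ccr2-positive class in either direction.

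Transcription factors lay on both sides. Of the 8 measured positive regulators, 3 were at least 4-fold higher: Mitf at 3.71 (3.14 to 4.27), Jdp2 at 3.36 (3.17 to 3.55) and Prdm1, which represses inhibitors of osteoclast formation, at 2.23 (1.70 to 2.72). Spi1, which encodes PU.1, was at 1.20 (1.01 to 1.39). Among the inhibitors, Irf8 was at -4.32 (-5.76 to -3.19), from 11.5 against 229 CPM, and Bcl6, with 3 UMIs in the 19, at -2.86 (-5.14 to -1.30), both at least 4-fold lower. Id2 was higher, at 1.64 (1.39 to 1.88), and did not pass 4-fold. Irf8 is also high in monocytes and macrophages, and against the C1q class it was at -5.68 (-7.14 to -4.54). Nfatc2 was at 0 UMIs in the 19.

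Sh3pxd2a, a scaffold of podosomes, was at 46.1 CPM in the 19 barcodes. It was at 58.5 CPM in macrophages, 77.5 in chondrocytes, 107 in osteoblasts and 1.77 in neutrophils. Of 6 further fusion genes, it alone was at least 4-fold higher than in the Ccr2-positive class, at 3.01 (2.24 to 3.74). Cd9 was at 1.93 (1.66 to 2.19), Sirpa at 1.06 (0.80 to 1.30) and Cd47, the ligand of Sirpa, at -1.86 (-2.21 to -1.52). Cd81 was at -0.76 (-2.22 to 0.40) against the Ccr2-positive class and at -5.29 (-6.75 to -4.14) against macrophages.

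**Figure D5:**
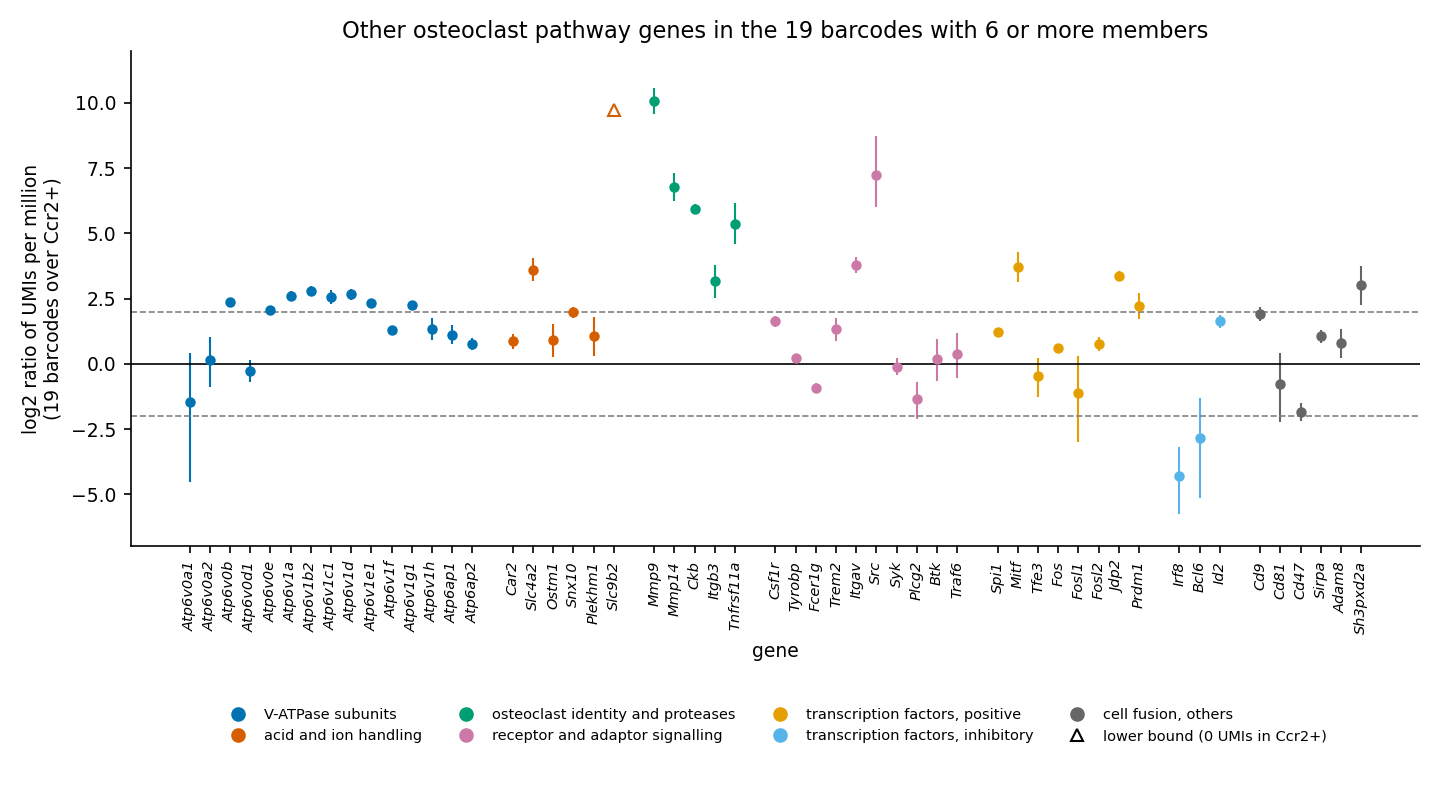
Log2 ratio of CPM in the 19 barcodes with 6 or more genes over Ccr2-positive barcodes for genes of the 7 pathway lists (colours) with at least 50 UMIs, with exact 95% intervals for counting error, dashed lines at 4-fold and an open triangle for a lower bound. Among genes with at least 50 UMIs in the Ccr2-positive class, Ckb, Itgb3 and 8 of the 15 pump subunits lie above 2 (Ckb and 5 subunits without the barcode richest in each gene), Mmp9, Mmp14, Tnfrsf11a, Slc9b2 and Src passed the minimum through the 19, and Irf8 and Bcl6 lie below -2.

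Genes outside the member, pathway and marker lists were ranked by their smallest log2 ratio to the 5 comparison classes. In the 59 barcodes the first 15 of 3218 genes included Chchd10, Matk, Xpr1, Uqcr11, Gnptab, Mrpl12, Uqcr10, Idh3a, Cyc1, Ddt, Hagh, Tufm, Mdh2 and Atp5g3. Of these, Idh3a and Mdh2 are enzymes of the citric acid cycle and Uqcr10, Uqcr11 and Cyc1 are parts of respiratory complex III, and Atp5g3 encodes a subunit of the mitochondrial ATP synthase. Chchd10, a mitochondrial protein, was at 368 CPM against 46.3 in the nearest class, a log2 ratio of 2.99 (2.80 to 3.18). It was also at 443 CPM in barcodes of no class, and Hagh was at 115 CPM in the 59 and 130 CPM there. The ratios of the 15 ended at 1.07 (0.94 to 1.19) for Atp5g3.

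In the 19 barcodes the first 15 of 1260 genes shared 8 with that list. The first was Coq8a, of coenzyme Q synthesis, at 5.22 (4.75 to 5.70), followed by Bdh2, Nudt22 and Ppargc1b, a coactivator of mitochondrial genes, seen in 78.9% of the 19 each. Further down were Gpr183, a receptor for oxysterols, at 3.64 (3.36 to 3.92), Kbtbd11, Xpr1, the phosphate exporter, at 2.76 (2.44 to 3.07), Gnptab, which tags lysosomal enzymes with mannose 6-phosphate, at 2.55 (2.12 to 2.96), and Fnbp1l. Gnptab and Cyc1 were seen in all 19. The ratios ran down to 2.29 (2.13 to 2.44) for Uqcr10, and these genes were ranked on the same barcodes that the osteoclast genes chose.

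Of the same genes, those lowest against the Ccr2-positive class came from more than 1 cell type. For the 19 barcodes they were Plac8, at 7.68 against 2558 CPM or -8.38 (-10.26 to -7.02), the granule protease genes Prtn3 and Ctsg, the protease inhibitor gene Slpi and the cytokine gene Il1b. For the 59 barcodes they were Ccl5, Gzma, Trbc1, Gzmb and Ms4a3. Several of these are genes of granulocyte precursors or T and NK cells, which the Ccr2 rule also takes in.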

How the data were processed

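Single-cell RNA sequencing of P56 tibia was performed by the authors on the 10x Chromium platform. The deposited values are raw counts of UMIs per gene and barcode, which the authors made with Cell Ranger 3.1.0 from reads aligned to mm10. The submitters' processing notes also name Seurat. The release of the annotation was not given in the sources used here. Gene positions were taken from GENCODE M21 and promoter windows from RefSeq.

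From these counts, barcodes with at least 1000 genes were kept. UMIs were summed per class and given as CPM, genes with at least 50 UMIs in both classes together or, where stated, in the comparison class alone were compared, and 4-fold was the call. A class at 0 UMIs was set to 3 UMIs, giving a bound. A second matrix of exogenous sequences gave WPRE, tdTomato and GFP counts. Shares were thinned to 3000 UMIs (100 draws). Doublets were called with Scrublet (scanpy 1.11.5, expected rate 6%) and kept, since the study names no removal. Analyses used Python 3.11.15, numpy 2.4.6 and scipy 1.17.1, and ratios were tested on simulated data.

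Genes outside the lists were named by rule: the 15 with the highest smallest log2 ratio to the 5 classes, among genes with at least 50 UMIs, seen in at least 50% of the barcodes and with at most 25% of UMIs in 1 barcode, and the 5 with the lowest ratio to the Ccr2-positive class. The members, lists and rules were chosen with earlier results of these data known. The division at 6 genes, the minimum in 1 class, the division by Ctsk and the choice of proliferating barcodes were made after the values were seen. Some genes that these rules and lists take in are not reported here. All alternatives are described in the closing section.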

Additional observations from a re-analysis of the deposited data

How the results depend on the processing

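No paired analysis was possible because the samples were deposited as 1 pool and no result comes from a test. The number of barcodes with 4 or more genes, 59, was 58 at the study's floor of 1600 genes, 58 at no more than 20% mitochondrial UMIs, 56 without called doublets and 59 with no floor. It depended on the number of genes asked for, with 287 at 3 or more, 28 at 5 or more and 19 at 6 or more. The level of the 10 genes, 6621 CPM, was 2015, 13202 and 18255 CPM at these steps and 18733 CPM at 6 or more without the barcode that met the S100a8 rule. It was 6949 CPM without doublets, 13976 without barcodes that met a comparison rule, 5755 with each cell weighing the same and 4839 without the barcode richest in the 10 genes together. Against all other barcodes, the log2 ratios of Tcirg1, Clcn7 and Nfatc1, chosen by the other 9, were 3.09, 2.37 and 2.56. They were 1.68, 1.23 and 1.56 when 3 of the others were asked for. Those of Acp5, Ctsk, Dcstamp and Ocstamp passed 4-fold in both cases. Atp6v0d2, with 24 UMIs in the other barcodes, passed the minimum through the chosen ones, and no share over all genes was taken here. With at least 50 UMIs in the Ccr2-positive class alone, 3 genes chosen by the others and 8 pathway genes in the 59 barcodes were at least 4-fold higher than in that class, and 16 pathway genes at 6 or more genes. Acp5 and Ctsk were together in 53 barcodes, and in 21.4 after thinning to 3000 UMIs. The share of macrophages with Acp5 was 43.8% thinned to 3000 UMIs and 26.5% thinned to 1500. Pathway genes higher in the 59 barcodes numbered 14, and 14 without the barcode richest in each gene, 21 at 6 or more genes, 22 without the S100a8 barcode there and 17 there without the barcode richest in each gene. At 2-fold they numbered 26, with no share over all genes taken at 2-fold, so that this count has no background to be read against. Of 152 log2 ratios of single genes under the alternatives, none changed sign, 100 stayed within the interval of the value reported and 52 did not. Among ratios to Ccr2-positive barcodes, those of Atp6v0d2, Ctsk and Acp5 fell to 7.87, 9.37 and 6.47 when 3 of the others were asked for. That of Tcirg1 was 0.84 at 3 and 2.86 at 6, and that of Ocstamp 1.81 and 5.17, so that both lost 4-fold at 3. That of Clcn7 was 0.51 and 2.44, and passed 4-fold also at 5 of the others (2.14) and without barcodes that met a comparison rule (2.26). The choices at 6 genes, of the minimum in 1 class, without the S100a8 barcode and, for pathway genes, without the richest barcode were made after seeing the data. Depth limits the rare genes: Oscar fell short of the minimum of 50 UMIs and was not counted, and Calcr, at 0 UMIs, could not be compared. With 26 osteoblasts and 59 macrophages a count of 0, taken as up to 3, allows shares of cells with a UMI of up to 11.5% and 5.08%.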

Other observations

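Barcodes that met none of the 5 comparison rules and held fewer than 4 of the osteoclast genes were divided by 4 further genes, at UMI minimums that were also chosen after the values were seen, and those that met more than 1 minimum were left out. In 290 barcodes with at least 1 UMI of Gata1, a factor of red cell and megakaryocyte precursors, Acp5 was at 70.9 CPM (62.9 to 79.6) and was seen in 40.7% of cells with up to 12 UMIs, while Nfatc1 was at 3.72 CPM and Dcstamp, Ocstamp and Atp6v0d2 were at 0 UMIs. In 1689 barcodes with at least 5 UMIs of Cd79a, a B cell gene, Nfatc1 was at 75.2 CPM, Acp5 at 35.4 and Ctsk at 0.665. In 65 barcodes with at least 20 UMIs of Col1a1, Ctsk was at 249 CPM (212 to 292) and was seen in 80.0% of cells. In 36 barcodes with at least 1 UMI of Cd209a, a gene of a monocyte-derived dendritic cell type, Dcstamp was at 47.3 CPM (25.2 to 80.8) in 6 barcodes, which held 52.0% of its UMIs in barcodes of no class.

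Under the floor of 1000 genes lay 4541 barcodes with a median of 2369 UMIs. None of them held 4 or more of the osteoclast genes, 4 held 3, and the 10 genes together were at 39.97 CPM, with 9 Atp6v0d2 UMIs.

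WPRE, the viral element at the end of the tdTomato transcript, was at 44.2 CPM in the 19 barcodes (23 UMIs, at most 6 in a barcode), 47.7 CPM in neutrophils and 1509 CPM in osteoblasts. tdTomato and GFP were at 0 UMIs in the 19, which allows a share of up to 15.8% of these barcodes for each.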
